A study of Mus musculus with 56 samples.

Results

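A set of 8 fat storage genes was followed through whole adrenal glands of mice that lacked the ubiquitin ligase gene Znrf3 in steroid-making cells: the perilipin genes Plin1, Plin2, Plin3, Plin4 and Plin5, the triglyceride synthesis enzyme genes Dgat1 and Dgat2, and the fatty acid binding protein gene Fabp4. They were chosen by symbol and matched to 8 of the 55487 gene identifiers of the female and male count tables, and all 8 passed the filter on low counts in every table (18645, 17086 and 16961 genes tested in the female, male and surgery table). The glands came from C57BL/6J mice: female glands were taken at 6, 9 and 12 weeks, and male glands at 4, 6 and 9 weeks. At each age 4 samples carried SF1-Cre with Znrf3 Fx/Fx (conditional knockout, cKO) and 4 controls were SF1-Cre negative; the labels give no Znrf3 genotype for the controls. Further male cKO glands at 9 weeks came from animals castrated or sham-operated at week 4, again 4 a group; some of these carried a reporter allele (eYFP or mTmG) and some none. The SF1 promoter that drives Cre is active in the steroid-making cortex, and also in gonads, the pituitary and part of the hypothalamus. Each sample was bulk RNA of a whole gland, so fewer cells of a type and less RNA per cell cannot be told apart.

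A lipid droplet is a core of triglyceride and cholesteryl ester under a single layer of phospholipid and coat proteins. In the adrenal cortex droplets hold the cholesteryl ester that feeds steroid synthesis. The perilipins are the coat: Plin2 and Plin3 are made in most cells, Plin1 coats the large droplets of fat cells and steroid-making cells, Plin4 sits on small droplets, and Plin5 is best known from tissues that burn fatty acids, where it brings droplets to mitochondria. Dgat1 and Dgat2 are unrelated enzymes that each add the last fatty acid of a triglyceride. Fabp4 carries fatty acids inside fat cells, macrophages and the endothelial cells of small vessels.

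The counts were summed per gene. Total counts per library, to 3 digits, were 35700000 to 51600000 in the female table, 12400000 to 35500000 in the male table and 25100000 to 42400000 in the surgery table. Levels are given as normalised CPM, a gene's counts scaled to a fixed library total after TMM scaling within a table, and they are never compared between tables. Fold changes are log2 values ± standard error from the quasi-likelihood test of edgeR, with p adjusted over all tested genes by Benjamini and Hochberg, and a gene is called higher or lower at an adjusted p under 0.05. Whole-gene Znrf3 was at 34.3 to 101 CPM in cKO and 26.4 to 42.7 CPM in control glands of the female and male tables. These values pool exons inside and outside the deleted stretch, so they check nothing about the deletion. Cortex markers were present in all libraries (10 genes summing to 29800 to 81900 CPM). Medulla markers (6 genes) fell in the cKO at all 6 ages and sexes, from sums of 3680 to 15100 CPM in controls to 230 to 1320 CPM.

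Plin2, the general droplet coat gene, was called higher in the cKO in 5 of the 6 comparisons, by 1.25 to 1.41-fold. Fabp4 was called higher in 3 of them, with its largest change in males at 9 weeks (2.33-fold). Dgat2, Plin4 and Plin5 fell in female cKO glands at 6 and 12 weeks. In castrated male cKO glands Plin4, Plin5 and Fabp4 were lower and Dgat2 was higher than in sham-operated ones. Dgat1 was called in none of the 7 comparisons.

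**Figure D1:**
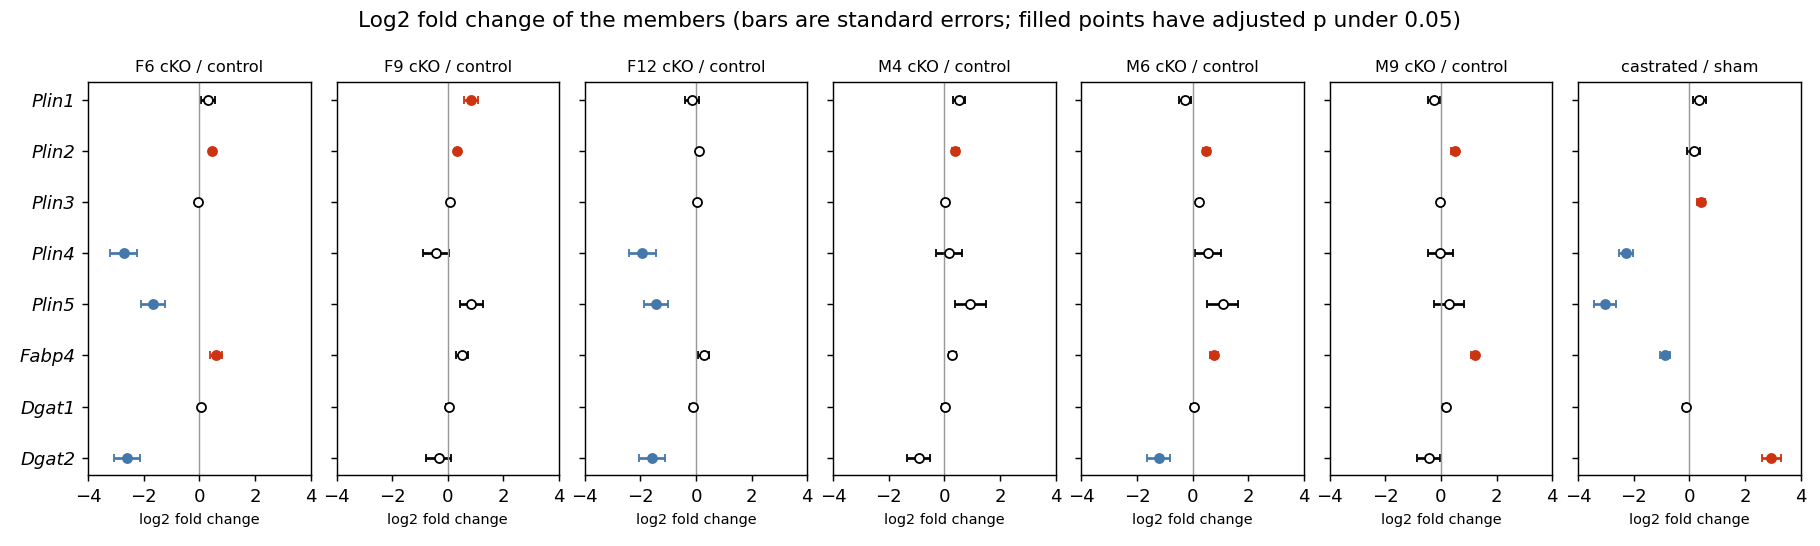
Log2 fold change (horizontal axis) of the 8 genes in the 6 comparisons of cKO with control glands and in castrated against sham-operated cKO glands, with standard errors, n = 4 glands a group. Filled points have an adjusted p under 0.05 (red higher, blue lower): Plin2 is filled on the right in 5 of 6 genotype panels, and Plin4 and Plin5 are filled on the left at 6 and 12 weeks in females and after castration.

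In females at 6 weeks 5 of the 8 genes were called, 2 higher (14.2% of all tested genes were called higher) and 3 lower (19.1% lower). At 9 weeks 2 were called, both higher (background 14.6% higher and 20% lower), and at 12 weeks 3, all lower (9.11% higher and 16% lower). In males 1 was called at 4 weeks, higher (6.29% higher and 12.9% lower), 3 at 6 weeks, 2 higher and 1 lower (8.19% higher and 11.9% lower), and 2 at 9 weeks, both higher (10.4% higher and 13.6% lower). The median log2 fold change of the 8 genes was 0.01, 0.2 and -0.12 in females at 6, 9 and 12 weeks and 0.22, 0.36 and 0.08 in males at 4, 6 and 9 weeks, beside 0.01, -0.02, -0.01, 0.01, -0.01 and -0.01 over all genes tested. Calls were thus common among all genes of these tables.

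**Figure D2:**
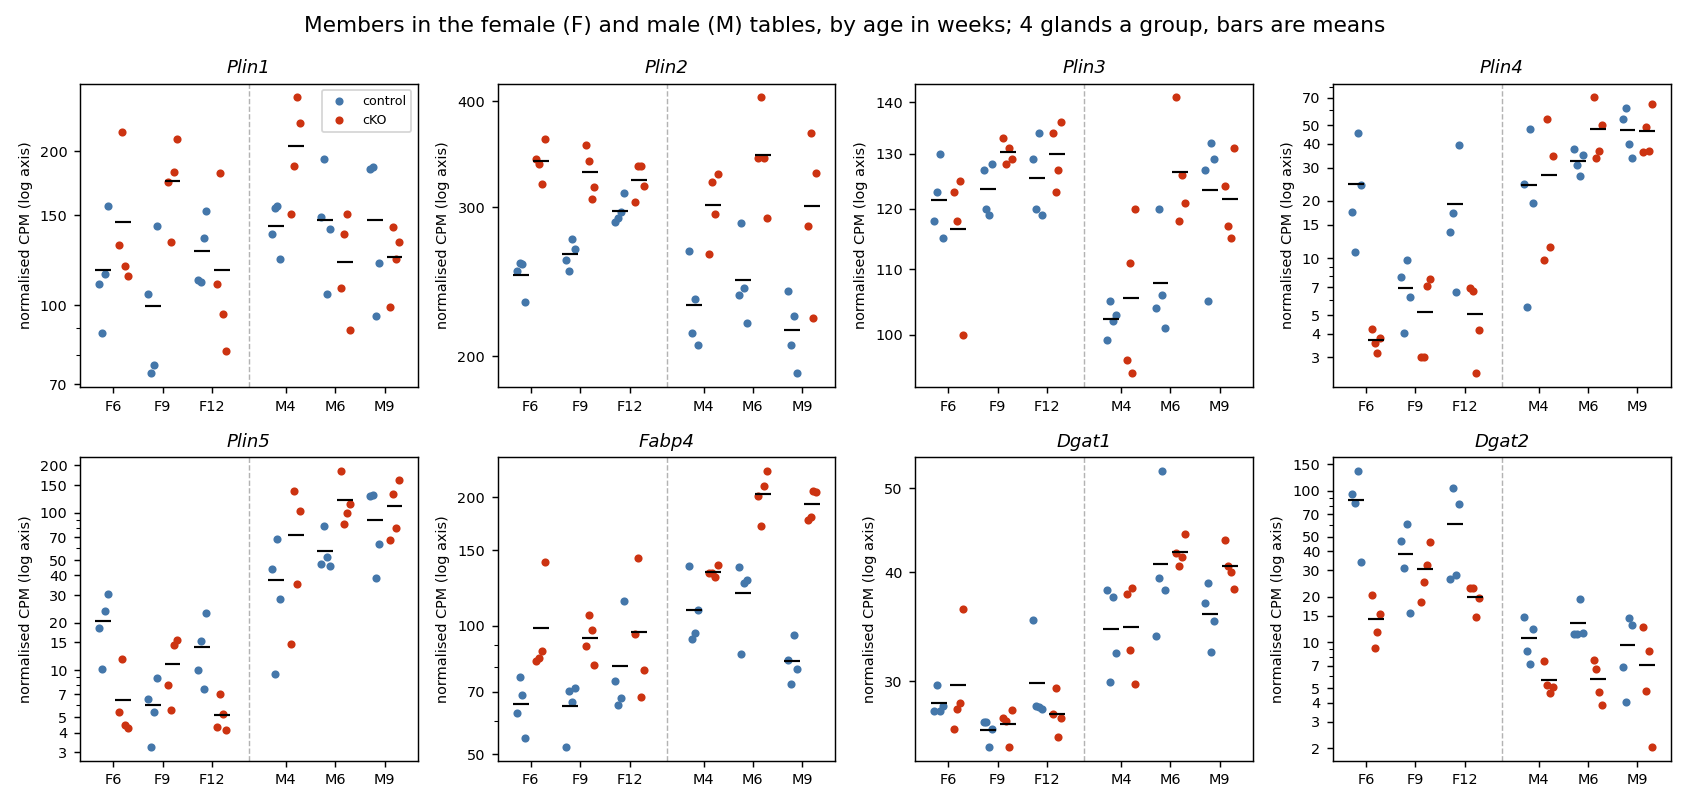
Normalised CPM (log axis) of each gene in every gland, by sex and age in weeks (F6 to M9), control in blue and cKO in red; horizontal bars are means of 4 glands, and a dashed line parts the female and male tables, whose levels are not compared. Plin2 lies higher in cKO glands at most ages, Fabp4 in males at 9 weeks does not overlap (72.9 to 95.1 against 177 to 207 CPM), and Plin4, Plin5 and Dgat2 lie low in female cKO glands at 6 weeks.

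Per kilobase of annotated exon, Plin2 had the highest mean level of the 8 genes in all 14 groups, at 61.1 to 98.3 CPM per kb. In female controls at 6 weeks Plin2 was at 71.1 CPM per kb, and Plin3, Dgat2 and Plin1 followed at 32.1, 28.2 and 25.3, which did not differ beyond the spread of Dgat2 between glands. Fabp4 (14.6), Plin5 (9.9), Dgat1 (9.26) and Plin4 (4.25 CPM per kb) were lower. In male controls at 6 weeks the order was Plin2 (70 CPM per kb), Plin1 (31.6), Plin3 (28.4), Plin5 (27.3), Fabp4 (26.6), Dgat1 (13.4), Plin4 (5.64) and Dgat2 (4.36), and the neighbours from Plin1 to Fabp4 overlapped between glands. Lengths are the union of all annotated exons, so a gene whose main transcript is shorter has a higher true level per length. For Fabp4 this union (4.49 kb) is as long as the gene itself (10204088 to 10208576). Its values per kb are therefore lower limits, and its place in these orders, also relative to Plin2, is not settled.

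Plin2 (chromosome 4, 86648386 to 86670060, minus strand; positions are of GRCm38) is the coat protein whose level follows stored lipid in most cells. In females at 6 weeks it was at 252, 258, 257 and 232 CPM in control glands and at 342, 337, 319 and 361 CPM in cKO glands, without overlap (0.44 ± 0.06, adjusted p = 1.39e-06, 1.36-fold higher). At 9 weeks the controls were at 252 to 275 CPM and the cKO glands at 307 to 355 CPM, again without overlap (0.32 ± 0.06, adjusted p = 8.84e-05). At 12 weeks the groups overlapped, at 288 to 312 against 304 to 335 CPM (0.12 ± 0.06, adjusted p = 0.115). The fall of the effect from 6 to 12 weeks was -0.32 ± 0.08, which did not pass the test (adjusted p = 0.0731), while DESeq2 gave the same size with an adjusted p of 0.0136. None of the 8 genes was called for that change by edgeR (background 0.322%; 1 of 8 at an unadjusted p under 0.05, and 1 by DESeq2).

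In male glands at 4 weeks Plin2 was at 266, 213, 234 and 206 CPM in controls and at 264, 321, 294 and 328 CPM in the cKO, with 1 overlapping pair (0.39 ± 0.13, adjusted p = 0.0366). At 6 weeks it was at 236, 287, 241 and 219 against 343, 404, 343 and 291 CPM, without overlap (0.49 ± 0.13, adjusted p = 0.00905, 1.41-fold higher). At 9 weeks it was at 239, 206, 223 and 191 against 285, 367, 222 and 329 CPM, where cKO replicate 3 lay among the controls (0.49 ± 0.13, adjusted p = 0.00913). The male calls were less firm than the female ones. Library numbers in the titles above 24 were held by 3 controls and no cKO library at 4 weeks, by all 4 controls and no cKO library at 6 weeks, and by 2 of each at 9 weeks. With that range as a covariate the change was 0.24 at 4 weeks (adjusted p = 0.364), 0.29 at 6 weeks (adjusted p = 0.346) and 0.48 at 9 weeks (adjusted p = 0.00654). The covariate is a single shift for all ages, so the 6-week value rests on a shift estimated at 4 and 9 weeks. The 6-week glands themselves cannot test the range. Within numbers up to 24 the change of Plin2 was 0.19 at 4 weeks (1 control, so the size alone is given) and 0.55 at 9 weeks (adjusted p = 0.0959), and 6 weeks has no control there. Leaving out any of control replicates 2 and 4 and cKO replicates 2 and 4 also ended the call at 4 weeks (adjusted p of 0.0538 to 0.0717), and at 9 weeks without cKO replicate 2 (0.38, adjusted p = 0.0533).

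Plin3 (chromosome 17, 56277476 to 56292873, minus strand) codes for a coat protein that binds small new droplets from the cytosol, and it varied least among the perilipins. Its means ran from 117 to 130 CPM over the 6 female groups and from 102 to 127 CPM over the 6 male groups. No genotype call was made in females (log2 changes of -0.06, 0.08 and 0.05) or in males (0.04, 0.24 and -0.02). At 6 weeks in males it was at 104, 120, 106 and 101 CPM in controls and at 141, 118, 126 and 121 CPM in the cKO (0.24 ± 0.08, adjusted p = 0.0509). That value sat at the threshold: DESeq2 gave an adjusted p of 0.0331, and leaving out any of control replicates 2 and 3 and cKO replicates 2, 3 and 4 gave a call (adjusted p of 0.0213 to 0.0423).

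Plin1 (chromosome 7, 79720218 to 79732903, minus strand), the coat gene of large droplets, spread widely within groups. It was called in 1 of the 6 comparisons, in females at 9 weeks, where controls were at 105, 73.5, 76.2 and 143 CPM and cKO glands at 174, 133, 182 and 211 CPM (0.82 ± 0.25, adjusted p = 0.0156). Control replicate 4 reached into the cKO range. The call was lost without control replicate 2 or control replicate 3 (0.70, adjusted p = 0.0578, and 0.71, adjusted p = 0.0586). In males at 4 weeks it was at 138, 155, 156 and 123 against 151, 187, 255 and 227 CPM (0.52 ± 0.21, adjusted p = 0.0895). It was called there without cKO replicate 1 (0.69, adjusted p = 0.0265). At 6 and 9 weeks in males cKO means were below control means, at 122 ± 28.1 against 147 ± 36.1 and at 124 ± 18.5 against 147 ± 46.1 CPM (SD, n = 4), and neither passed the test (adjusted p = 0.405 and 0.442).

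Plin4 (chromosome 17, 56100591 to 56109803, minus strand) and Plin5 (chromosome 17, 56111601 to 56117596, minus strand) lie next to each other in the same direction, and their levels moved together. Their Pearson r of log2 CPM was 0.79 over 24 female and 0.91 over 24 male libraries. By the mean of these 2 values each was the gene most like the other among 12779 genes. After removal of group means r of the pair was 0.68 in females and 0.91 in males, and 0.63 over the 8 surgery libraries. In the female libraries alone other genes had a higher r, Cabp1 (0.85) and Dgat2 (0.82) with Plin4 and Npas2 (0.85) with Plin5. These libraries share ages, genotypes and depth, so the values are descriptions. The far end of Plin4 overlaps the end of Hdgfl2, which lies on the other strand; the kit was directional, while the sources used here do not give the strand setting of the counting. Because the pair moved together, their promoters are shown beside that of Plin2, which was called the other way in females at 6 weeks only. They are RefSeq sequences of GRCm38.p6, each 250 bases before to 50 bases after the start site on the minus strand, at chr17:56109733-56110032 for Plin4, chr17:56117499-56117798 for the first of 2 Plin5 entries and chr4:86670010-86670309 for Plin2, and the capitals mark the letters found in the search.
Plin4: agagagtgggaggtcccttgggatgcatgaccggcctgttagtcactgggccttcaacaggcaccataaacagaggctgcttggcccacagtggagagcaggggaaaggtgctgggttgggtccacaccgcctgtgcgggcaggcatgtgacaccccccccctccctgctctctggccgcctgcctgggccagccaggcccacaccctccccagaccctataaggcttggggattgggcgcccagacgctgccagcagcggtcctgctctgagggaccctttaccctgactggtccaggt
Plin5: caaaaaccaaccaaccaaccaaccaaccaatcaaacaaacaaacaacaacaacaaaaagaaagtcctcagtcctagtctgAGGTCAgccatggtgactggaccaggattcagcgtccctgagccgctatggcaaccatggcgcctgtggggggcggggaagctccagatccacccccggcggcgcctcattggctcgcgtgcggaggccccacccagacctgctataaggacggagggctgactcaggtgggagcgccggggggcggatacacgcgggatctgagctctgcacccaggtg
Plin2: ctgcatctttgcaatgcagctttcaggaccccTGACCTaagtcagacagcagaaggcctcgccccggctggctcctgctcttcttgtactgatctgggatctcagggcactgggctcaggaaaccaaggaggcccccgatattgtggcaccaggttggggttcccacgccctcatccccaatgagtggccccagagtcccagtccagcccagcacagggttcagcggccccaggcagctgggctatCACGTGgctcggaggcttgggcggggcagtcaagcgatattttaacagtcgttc
The search took 6 strings on both strands. The nuclear receptor half-site AGGTCA was found once in each of the 2 Plin5 entries and once, as its reverse complement, in Plin2, and in 16.3% of 32851 RefSeq promoters of the same length. The E-box CACGTG was found in Plin2 and in 7.15% of all promoters. The steroid receptor half-site AGAACA (19% of promoters) was found in none of the 3, nor were the SF1 site CAAGGTCA (1.56%; it holds AGGTCA within it), the direct repeat of AGGTCA with 1 base between (0.0396%) or the full steroid receptor palindrome (0.00913%, which holds AGAACA). These counts describe letters in these windows only. Promoters of Fabp4, Dgat1 and Dgat2 were not analysed here.

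In females at 6 weeks Plin4 was at 17.5, 10.7, 45.6 and 24.3 CPM in controls and at 4.21, 3.58, 3.15 and 3.8 CPM in the cKO. The groups did not overlap, and the change was -2.73 ± 0.5 (adjusted p = 0.000172, 6.66-fold lower). Plin5 was at 18.4, 10.2, 23.6 and 30.4 against 5.45, 11.8, 4.46 and 4.26 CPM (-1.67 ± 0.42, adjusted p = 0.00327, 3.17-fold lower), where cKO replicate 2 overlapped the lowest control. At 9 weeks neither gene passed the test. Controls were low there, at 7.98, 4.01, 9.74 and 6.21 CPM for Plin4, and the cKO glands were at 3.02, 3.01, 7.15 and 7.71 CPM (-0.42 ± 0.48, adjusted p = 0.535). Plin5 was at 6.57, 3.24, 5.38 and 8.91 against 8.08, 5.54, 14.4 and 15.6 CPM (0.85 ± 0.41, adjusted p = 0.119). Between 6 and 9 weeks the control groups did not overlap for either gene, with changes of -1.81 ± 0.48 for Plin4 (adjusted p = 0.502) and -1.78 ± 0.42 for Plin5 (adjusted p = 0.355). DESeq2 gave an adjusted p of 0.0475 for Plin5 in that step.

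At 12 weeks Plin4 was at 13.8, 17.2, 6.66 and 39.5 CPM in controls and at 6.93, 6.7, 2.47 and 4.2 CPM in the cKO (-1.93 ± 0.49, adjusted p = 0.00508, 3.82-fold lower), with an overlap at the lowest control. Plin5 was at 10, 15.4, 7.62 and 23.2 against 4.36, 7, 5.29 and 4.13 CPM, without overlap (-1.44 ± 0.42, adjusted p = 0.0136, 2.71-fold lower). Control replicate 4, the highest for both genes, also held the most fat transcripts of all libraries (Adipoq at 8.17 and Cfd at 76.7 CPM). Without it Plin5 was at -1.09 (adjusted p = 0.0716). Without both 12-week libraries with Cfd above 20 CPM, control replicate 4 and cKO replicate 2, Plin4 kept its call at -1.47 (adjusted p = 0.0434), Plin5 was at -1.26 (adjusted p = 0.0539), and 1 of the 8 genes was called in place of 3. That library limit was chosen after the values were seen. Over all 3 ages the genotype effect in females changed for none of the 8 genes by edgeR (background 0.139%; 5 of 8 at an unadjusted p under 0.05). DESeq2 called 2, Plin5 and Plin2.

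In males neither gene was called at any age. Plin4 was at 24.5, 5.55, 47.8 and 19.5 CPM in controls and 9.82, 53.8, 11.4 and 34.6 CPM in the cKO at 4 weeks, so both groups ran over the same range. Plin5 was at 44.1, 9.46, 68.1 and 28.2 against 14.6, 137, 35.1 and 102 CPM (0.93 ± 0.55, adjusted p = 0.258), and the glands that were high for one gene were high for the other. At 6 weeks Plin5 was at 47.1, 82.6, 52 and 46.1 against 184, 85, 99.6 and 113 CPM. These groups did not overlap, and the change of 1.08 ± 0.55 did not pass the test in the fit with all groups (adjusted p = 0.182), while a fit with the 2 groups alone gave 1.09 (adjusted p = 0.00918). Plin4 was at 37.5, 30.8, 27 and 35 against 70.2, 33.6, 36.6 and 50.5 CPM (0.55 ± 0.47, adjusted p = 0.46). At 9 weeks the means were 47.4 ± 12.8 against 46.8 ± 13.6 CPM for Plin4 and 89.7 ± 45.9 against 110 ± 43.7 CPM for Plin5 (SD, n = 4).

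**Figure D3:**
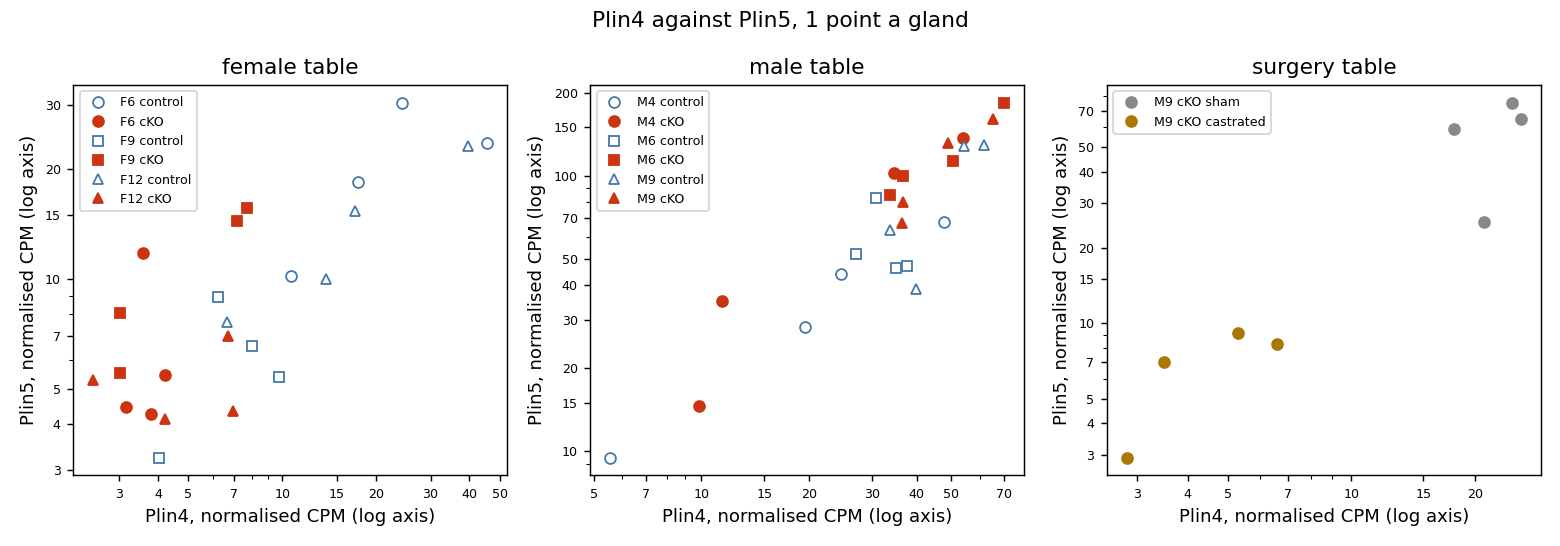
Plin4 (horizontal) against Plin5 (vertical) in normalised CPM on log axes, 1 point a gland, in the female, male and surgery tables; symbols give age and colours the genotype or surgery. The points run along a rising line in each table, with r of 0.79, 0.91 and 0.95 of log2 CPM, and the castrated glands lie below the sham-operated ones on both axes.

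The effect of genotype on this pair differed between the sexes at 6 weeks, where 2 of the 8 genes were called for a difference (background 7.63% of 17681 genes). The male minus female difference of log2 changes was 3.26 ± 0.47 for Plin4 (adjusted p = 0.000959) and 2.72 ± 0.5 for Plin5 (adjusted p = 0.0044). For Dgat2 it was 1.38 ± 0.5 (adjusted p = 0.106; 1.65, adjusted p = 0.022, without female control replicate 4). At 9 weeks the differences were 0.4 ± 0.46 for Plin4 and -0.56 ± 0.58 for Plin5, and neither passed the test (adjusted p = 0.62 and 0.576). The sexes were counted in separate tables, so the table and the sex cannot be told apart. At 6 weeks all male controls and no male cKO gland had library numbers above 24, so that range and genotype cannot be told apart in the male part. The range was not used as a covariate for the sex differences.

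The genes beside the pair were looked at over 100 kb on either side, a window chosen after the values were seen. Lrg1, a secreted glycoprotein gene that lies next to Plin5 on the same strand (56119678 to 56122001), fell in female cKO glands at 6 weeks (-1.26 ± 0.18, adjusted p = 9.3e-06), at 9 weeks (-1.58 ± 0.18, adjusted p = 7e-07) and at 12 weeks (-0.81 ± 0.18, adjusted p = 0.00184). Sema6b, a semaphorin gene beyond it, fell at all 3 ages too, by 0.36, 0.66 and 0.34 on the log2 scale. Mpnd, on the other side of the pair, rose at all 3 ages, by 0.36, 0.39 and 0.31, and at 9 weeks Tnfaip8l1 (-0.51 ± 0.15, adjusted p = 0.00935) and Stap2 (-0.43 ± 0.14, adjusted p = 0.0236) fell. Mydgf rose in females at 9 weeks (0.22 ± 0.07, adjusted p = 0.014). In males at 4 weeks Lrg1 fell too (-1 ± 0.26, adjusted p = 0.00851), while Plin4 and Plin5 were not called. The other male calls were rises. Mpnd rose at 4 weeks (0.32 ± 0.08, adjusted p = 0.00825) and 6 weeks (0.23 ± 0.08, adjusted p = 0.0495), and Ubxn6 at 6 weeks (0.25 ± 0.08, adjusted p = 0.0239). Stap2 (0.67 ± 0.15, adjusted p = 0.00245) and Hdgfl2 (0.46 ± 0.11, adjusted p = 0.00402) rose at 9 weeks. In females at 9 weeks Lrg1 and Sema6b were called and Plin4 and Plin5 were not, a difference that was not tested.

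Dgat2 (chromosome 7, 99153658 to 99182719, minus strand), which makes triglyceride at the droplet surface and the endoplasmic reticulum, fell with the pair in females. At 6 weeks it was at 95.8, 82.9, 135 and 34.2 CPM in controls and at 20.7, 9.23, 11.7 and 15.4 CPM in the cKO, without overlap (-2.61 ± 0.48, adjusted p = 0.000174, 6.1-fold lower). At 9 weeks the groups ran over the same range, at 46.5, 31, 60.5 and 15.7 against 18.6, 25.1, 32.4 and 46 CPM (-0.33 ± 0.45, adjusted p = 0.611). At 12 weeks it was at 26.2, 105, 27.8 and 81.4 against 22.9, 22.9, 14.8 and 19.8 CPM (-1.58 ± 0.46, adjusted p = 0.0141, 2.99-fold lower), again without overlap. The controls were in 2 pairs, a low and a high one. The call was lost without control replicate 2 (-1.17, adjusted p = 0.0767) and without the libraries with Cfd above 20 CPM (-1.47, adjusted p = 0.0661). Across the 24 female libraries r of log2 CPM was 0.82 between Dgat2 and Plin4, and 0.57 after removal of group means. With Plin5 these values were 0.57 and 0.11. Over the male libraries r of Dgat2 was -0.29 with Plin4 and -0.48 with Plin5, and over the surgery libraries it was -0.96 and -0.9.

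In males Dgat2 was low in both genotypes. At 4 weeks it was at 14.7, 8.83, 7.17 and 12.2 CPM in controls and 7.52, 5.26, 4.64 and 5.11 CPM in the cKO (-0.92 ± 0.41, adjusted p = 0.126). At 6 weeks it was at 11.4, 11.4, 19.3 and 11.6 against 7.69, 6.72, 4.72 and 3.88 CPM, without overlap (-1.22 ± 0.42, adjusted p = 0.0419, 2.33-fold lower). That call sat at the threshold and was lost when any 1 of the 8 libraries was left out (-0.95 to -1.35, adjusted p of 0.0503 to 0.15). With the range of library numbers as a covariate it was -1.19 (adjusted p = 0.224), a value that rests on a shift estimated at 4 and 9 weeks. At 9 weeks controls at 6.87, 4.02, 14.5 and 13 CPM overlapped cKO glands at 12.6, 4.81, 8.83 and 2.04 CPM (-0.44 ± 0.41, adjusted p = 0.47).

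Dgat1 (chromosome 15, 76502015 to 76511953, minus strand), the other enzyme of the same step, varied little. Its means ran from 26.3 to 29.8 CPM over the female groups and from 34.5 to 42.2 CPM over the male groups. The 6 genotype changes ran from -0.12 ± 0.09 in females at 12 weeks to 0.18 ± 0.11 in males at 9 weeks, with adjusted p of 0.252 or more in every comparison.

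Fabp4 (chromosome 3, 10204088 to 10208576, minus strand) rose most in males. At 4 weeks it was at 138, 92.9, 96.4 and 109 CPM in controls and at 133, 133, 130 and 139 CPM in the cKO (0.29 ± 0.13, adjusted p = 0.125). It was called there without control replicate 1 (0.48, adjusted p = 0.00786). At 6 weeks it was at 137, 85.7, 126 and 128 against 201, 171, 212 and 230 CPM, without overlap (0.77 ± 0.13, adjusted p = 0.000145, 1.7-fold higher). At 9 weeks it was at 83, 72.9, 95.1 and 79 against 177, 180, 207 and 206 CPM, again without overlap (1.22 ± 0.13, adjusted p = 6.19e-07, 2.33-fold higher). With the range of library numbers as a covariate the changes were 0.76 at 6 weeks (adjusted p = 0.00545) and 1.22 at 9 weeks (adjusted p = 1.29e-06). Range and genotype coincide fully at 6 weeks, so the 6-week value rests on a shift estimated at 4 and 9 weeks and does not test the range there. Within numbers up to 24 the 9-week change was 1.2 (adjusted p = 0.00254).

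The genotype effect on Fabp4 in males grew between 4 and 9 weeks, by 0.93 ± 0.18 (adjusted p = 0.01), and Fabp4 was the 1 gene of the 8 called for that change (background 4.92%). From 4 to 6 weeks cKO glands rose by 0.6 ± 0.13 (adjusted p = 0.00456), and from 6 to 9 weeks controls were at -0.53 ± 0.13, which did not pass the test (adjusted p = 0.541). The joint test over the 3 ages called it too (adjusted p = 0.0354; background 1.66%), though it was lost when any 1 of 10 of the 24 male libraries was left out. The range of library numbers nearly coincided with genotype at 4 weeks and was evenly split at 9 weeks. It was not used as a covariate in these tests of change with age.

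In females Fabp4 was at 62.6, 75.9, 68.8 and 54.6 CPM in controls and at 82.7, 84, 87.2 and 141 CPM in the cKO at 6 weeks, without overlap (0.59 ± 0.21, adjusted p = 0.035). cKO replicate 4, the highest, had Cfd at 21.3 CPM, and without it the change was 0.37 (adjusted p = 0.184). The call was also lost without control replicate 1, 3 or 4 (adjusted p of 0.0536 to 0.103). At 9 weeks it was at 52, 70.4, 66.3 and 71.5 against 89.8, 106, 97.7 and 80.9 CPM, again without overlap (0.52 ± 0.21, adjusted p = 0.0606). DESeq2 called that change (0.54, adjusted p = 0.0397), as did the fit without the libraries with Cfd above 20 CPM, all of them of other ages (0.52, adjusted p = 0.0014). At 12 weeks it was at 74.1, 65.4, 67.6 and 114 against 95.5, 144, 68 and 78.6 CPM, and the highest library of each group was the one with the most Cfd (0.27 ± 0.21, adjusted p = 0.388).

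At 9 weeks the genotype effect differed between the sexes for 2 of the 8 genes (background 8.68% of 17824 genes). The male minus female difference was 0.68 ± 0.16 for Fabp4 (adjusted p = 0.0153; 0.59, adjusted p = 0.051, without male cKO replicate 3) and -1.07 ± 0.32 for Plin1 (adjusted p = 0.0481). The Plin1 call was lost when any 1 of 12 of the 16 libraries was left out (-0.93 to -1.16, adjusted p of 0.0505 to 0.105). With the replicate block it was -1.08 (adjusted p = 0.0544), so 1 gene was called.

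Age steps within a genotype gave few calls. In male cKO glands from 4 to 6 weeks 3 of the 8 genes were called (background 16.6%): Fabp4 as above, Plin3, higher by 0.26 ± 0.08 (adjusted p = 0.0345), and Plin1, lower by 1.68-fold (-0.75 ± 0.21, adjusted p = 0.0188). Plin1 went from 151, 187, 255 and 227 CPM to 108, 138, 151 and 89.5 CPM. Plin3 lost its call without cKO replicate 1 or 3 of 4 weeks or cKO replicate 1 or 4 of 6 weeks (0.22 to 0.29), and Plin1 without cKO replicate 3 of 4 weeks or cKO replicate 1 or 4 of 6 weeks (-0.62 to -0.69). Without the libraries with Cfd above 20 CPM, Fabp4 alone was called.

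No member was called by edgeR in the other 7 steps. In female controls from 6 to 9 weeks 0 of 8 were called (background 0%), 3 had an unadjusted p under 0.05, and DESeq2 called Plin5. In female cKO glands the counts were 0 for 6 to 9 weeks (background 1.75%) and 0 for 9 to 12 weeks (0%), each with 2 at an unadjusted p under 0.05. In female controls from 9 to 12 weeks it was 0 (0%) with 4 such genes. Male controls gave 0 from 4 to 6 weeks (0.0702%) with 1 such gene and 0 from 6 to 9 weeks (0%) with 2, and male cKO glands 0 from 6 to 9 weeks (0.761%) with 0. DESeq2 called no member in the last 6 of these steps.

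Between castrated and sham-operated male cKO glands 5 of the 8 genes were called, 2 higher after castration (19.8% of the 16961 genes tested were called higher) and 3 lower (23.8% lower). Castrated glands had library numbers 13 to 16 and sham glands 10, 12, 29 and 33, and the part of these numbers was not tested. The median log2 change was 0.02 over the 8 genes and -0.01 over all genes tested. By DESeq2, over all genes with a count, the median was -0.145, and it called the same number of members. All sham samples carry the replicate number 1 in the labels, so the sham numbers used here follow the order of their library numbers. Sham replicate 1 stood apart from the other 3 sham glands: it was lowest for Plin1, Plin2, Plin3 and Plin5 and highest for Fabp4 and Dgat1, and 9.87% of its counts were mitochondrial, beside 2.41% to 3.11% in the other sham and 3.55% to 4.44% in the castrated glands. Without it 5 genes were called as well.

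Plin4 was at 21.1, 17.8, 25.9 and 24.6 CPM in sham-operated and at 2.84, 5.31, 6.58 and 3.49 CPM in castrated cKO glands, without overlap (-2.29 ± 0.25, adjusted p = 6.77e-05, 4.89-fold lower). Plin5 was at 25.2, 59.2, 64.9 and 75.3 against 2.92, 9.12, 8.25 and 7.04 CPM, again without overlap (-3.03 ± 0.39, adjusted p = 0.000158, 8.19-fold lower). The droplet coat genes of the pair thus fell together. Their neighbours Lrg1 (-1.93 ± 0.31, adjusted p = 0.00073) and Sema6b (-0.71 ± 0.14, adjusted p = 0.00236) fell too. Of the other neighbours tested within 100 kb, Stap2 fell (-1.15 ± 0.28, adjusted p = 0.00709), Mpnd (0.83 ± 0.11, adjusted p = 0.000195) and Ubxn6 (0.42 ± 0.14, adjusted p = 0.0359) rose, and Hdgfl2, the gene that overlaps the end of Plin4, fell by 0.51 ± 0.15 (adjusted p = 0.0158). The other neighbours tested there were not called.

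Dgat2 went the other way. It was at 3.71, 5.61, 5.38 and 7.84 CPM in sham-operated and at 77.7, 33.2, 27.8 and 37 CPM in castrated glands, so the lowest castrated gland lay above the highest sham gland (2.95 ± 0.34, adjusted p = 8.77e-05, 7.73-fold higher). Dgat1 was at 41.4, 31, 32 and 33.6 against 33.4, 28.7, 30.6 and 33.8 CPM (-0.12 ± 0.12, adjusted p = 0.419).

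Fabp4 was at 251, 163, 151 and 192 CPM in sham-operated and at 118, 85.7, 89.5 and 115 CPM in castrated glands, without overlap (-0.89 ± 0.18, adjusted p = 0.00231, 1.85-fold lower). With log2 CPM of Adipoq as a covariate it was -0.71 (adjusted p = 0.119), and then 3 of the 8 genes were called: Plin4 (-2.45), Plin5 (-3.36) and Dgat2 (3.49). Over all 16961 genes tested the calls fell from 7402 to 2562 in that fit. Adipoq itself did not overlap between sham-operated (0.736 to 2.15 CPM) and castrated glands (0.0312 to 0.517 CPM). The covariate thus goes largely with the surgery, and that fit cannot tell fat tissue and castration apart. Without sham replicate 1 Fabp4 was at -0.72 (adjusted p = 0.00174).

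Plin3 was at 80.1, 121, 110 and 127 against 142, 145, 141 and 153 CPM, without overlap (0.41 ± 0.14, adjusted p = 0.0359). The call was lost without sham replicate 3 or any 1 castrated gland (0.39 to 0.43, adjusted p of 0.0545 to 0.08) and with the reporter allele as a covariate (0.37, adjusted p = 0.0737). Without sham replicate 1 it was 0.28 (adjusted p = 0.016). Plin2 was at 149, 288, 285 and 363 against 267, 276, 332 and 335 CPM (0.16 ± 0.23, adjusted p = 0.604), and without sham replicate 1 at -0.04. Plin1 was at 84.7, 132, 111 and 125 against 83.1, 202, 137 and 158 CPM (0.36 ± 0.24, adjusted p = 0.246). Without castrated replicate 1 Plin1 was called (0.56, adjusted p = 0.0329).

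**Figure D4:**
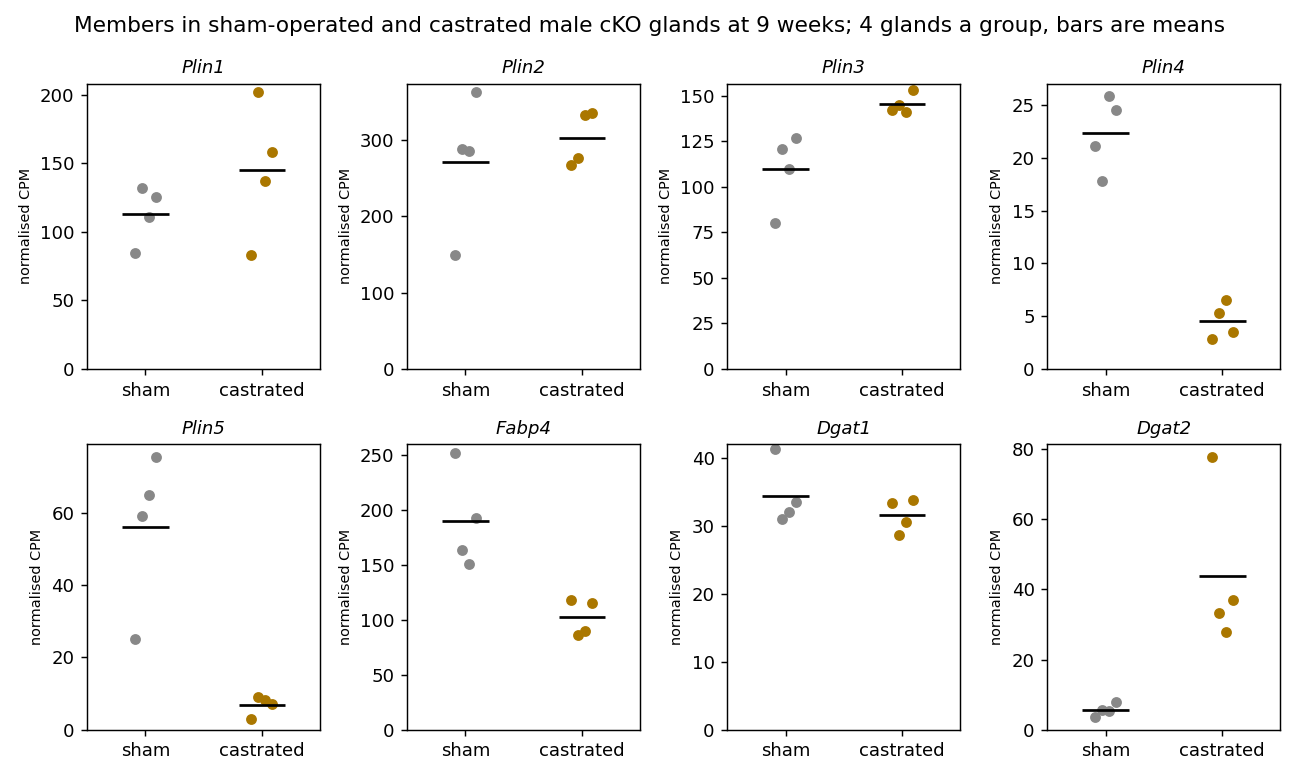
Normalised CPM of the 8 genes in sham-operated (grey) and castrated (brown) male cKO glands at 9 weeks, each axis from 0, 1 point a gland, bars are means of 4. Plin4, Plin5 and Fabp4 lie lower and Dgat2 and Plin3 higher after castration, each without overlap. The share of all genes without overlap was not counted, and 19.8% of them were called higher and 23.8% lower.

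Cell type markers moved with the surgery, where 19.8% of all genes tested were called higher and 23.8% lower. Macrophage markers (10 genes) summed to 1700 to 3110 CPM in sham-operated and 358 to 592 CPM in castrated glands, with 9 of 10 called lower. Endothelial markers (10 genes) summed to 1220 to 1650 against 959 to 1040 CPM, with 8 of 10 called lower, and cortex markers (10 genes) to 29800 to 42300 against 71500 to 81900 CPM, with 6 called higher and 1 lower. Medulla markers (6 genes) summed to 911 to 1810 against 300 to 695 CPM, with 6 of 6 called lower. The part of these shifts in the changes of the 8 genes was not tested. In genotype comparisons macrophage markers rose with Fabp4 in males, from 373 to 473 CPM in controls to 923 to 5550 CPM in the cKO at 9 weeks, with 8 of 10 called higher. Endothelial markers rose in male cKO glands as well, from 1200 to 1480 CPM to 1760 to 2020 CPM at 6 weeks (6 of 10 called higher) and from 1260 to 1590 CPM to 1430 to 1750 CPM at 9 weeks (3 of 10). In females at 6 weeks 7 of 10 macrophage markers were called higher, and endothelial markers were called lower for 8 of 10 and higher for 1. At 9 and 12 weeks in females 8 and 6 of 10 macrophage markers were called higher, while edgeR did not call Fabp4 at either age. The macrophage sums at 12 weeks were 303 to 500 CPM in controls and 903 to 1740 CPM in the cKO. Endothelial markers were called lower for 9 and 3 and higher for 1 at each of these ages. The part of these markers was likewise not tested.

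Genes around the droplet moved in both directions. The counts of this and the next lists stand beside 19.8% of all tested genes called higher and 23.8% lower after castration. In the cKO comparisons 6.29% to 14.6% of all tested genes were called higher and 11.9% to 20% lower. Of the lipolysis and droplet regulators (21 listed), 18 were tested after castration, 10 were called higher and 3 lower, with a median log2 change of 0.44. Lipe, hormone-sensitive lipase, which frees cholesterol from its esters in steroid cells, rose by 1.23 ± 0.13 (adjusted p = 5.67e-05), Lipa, the lysosomal acid lipase, by 1.49 ± 0.22 (adjusted p = 0.000358), Fitm2, which helps droplets bud, by 1.22 ± 0.18 (adjusted p = 0.00044) and Bscl2, the seipin gene, by 0.6 ± 0.11 (adjusted p = 0.00173). In the cKO against controls the list was mixed: 3 higher and 5 lower of 20 tested in females at 6 weeks, 6 and 1 at 9 weeks, 5 and 1 at 12 weeks, and 1 and 2, 3 and 2, and 2 and 1 of 18 in males at 4, 6 and 9 weeks. Pnpla2, the adipose triglyceride lipase, was called higher in females at 6 weeks (0.39 ± 0.08, adjusted p = 0.000319), 9 weeks (0.37 ± 0.08, adjusted p = 0.000658) and 12 weeks (0.34 ± 0.08, adjusted p = 0.00184) and in males at 4 weeks (0.37 ± 0.1, adjusted p = 0.0152) and 6 weeks (0.38 ± 0.1, adjusted p = 0.011). Lipa rose in females at all 3 ages, by 0.77, 0.5 and 0.64. Fitm1, a relative of Fitm2, fell in females at 6 weeks (-1.53 ± 0.27, adjusted p = 0.000133) and 12 weeks (-1.39 ± 0.28, adjusted p = 0.000676) and in males at 4 weeks (-1.67 ± 0.59, adjusted p = 0.0497).

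The triglyceride synthesis list (13 genes, 11 tested) holds the enzymes that act before Dgat1 and Dgat2. After castration 6 were called higher and 3 lower, with a median of 0.33. Gpam, the mitochondrial enzyme of the first step, rose by 3.16 ± 0.14 (adjusted p = 3.22e-07) and Agpat2, of the second step, by 2.31 ± 0.12 (adjusted p = 8.1e-07), while Gpat3, another first-step enzyme, fell by 3.07 ± 0.25 (adjusted p = 8.9e-06). In the cKO 1 was higher and 2 lower in females at 6 weeks, 4 and 3 at 9 weeks and 0 and 1 at 12 weeks. In males 1 was higher at 4 weeks, 1 lower at 6 weeks and none was called at 9 weeks. Gpat3 fell with Plin4 and Plin5 in females at 6 weeks (-1.47 ± 0.31, adjusted p = 0.000736) and 12 weeks (-1.07 ± 0.3, adjusted p = 0.0117), the ages at which the pair fell.

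Of 15 genes of fatty acid uptake, binding and activation, 4 were called higher and 4 lower after castration (median -0.21; 19.8% and 23.8% of all genes). Fabp5, a relative of Fabp4, fell by 4.1 ± 0.15 (adjusted p = 1.19e-07) and Lpl, lipoprotein lipase, by 3.15 ± 0.19 (adjusted p = 1.49e-06). In male cKO glands at 9 weeks these were higher than in controls, Fabp5 by 4.52 ± 0.51 (adjusted p = 1.14e-06) and Lpl by 2.2 ± 0.36 (adjusted p = 0.00012), as was Cd36, a fatty acid receptor (1.73 ± 0.36, adjusted p = 0.0011), beside Fabp4. The list's calls in the cKO were 1 higher and 5 lower in females at 6 weeks, 3 and 6 at 9 weeks, 1 and 2 at 12 weeks, and 3 and 3, 3 and 2, and 3 and 2 in males at 4, 6 and 9 weeks. Acsl6, an acyl-CoA synthetase, fell at all 6, by 1.64 to 2.55. Cd36 differed between the sexes at 6 weeks (2.23 ± 0.42, adjusted p = 0.00516) and at 9 weeks (2.44 ± 0.37, adjusted p = 0.00179).

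The PPAR list (14 genes) covers nuclear receptors that bind fatty acids and genes they are known to drive. After castration 1 was called higher and 7 lower (median -0.18), among them Pparg, the receptor of fat cells and lipid-laden macrophages (-1.8 ± 0.2, adjusted p = 5.91e-05). In the cKO 2 were higher and 6 lower in females at 6 weeks, 2 and 5 at 9 weeks and 2 and 5 at 12 weeks. In males 0 were higher and 3 lower at 4 weeks, 2 and 1 at 6 weeks and 1 and 2 at 9 weeks. Pparg rose in male cKO glands at 6 weeks (1.1 ± 0.27, adjusted p = 0.00513) and at 9 weeks (1.99 ± 0.27, adjusted p = 1.13e-05), as Fabp4 did, and in female cKO glands at 12 weeks (2.23-fold, adjusted p = 0.00943), where Fabp4 was not called.

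The genes most like each member over 24 female and 24 male libraries give another view, as a description over libraries that share age, genotype and depth. For Plin2 they were Gpx1, Cstb and Maoa (mean r of 0.83, 0.82 and 0.82), for Plin4 after Plin5 Cabp1 and Acox3 (0.81 and 0.79), and for Plin5 after Plin4 Npas2 and Acox3 (0.77 each). For Fabp4 they were Bax, Myl6 and Pparg (0.8, 0.77 and 0.77), for Plin1 Pde8b and Anp32a (0.79 and 0.76) and for Plin3 Lztr1, Camkk1 and Rnf130 (0.7, 0.69 and 0.65). Dgat1 was most like Tsr3, Tmem134 and Plk3 (0.73, 0.7 and 0.68), and Dgat2 was most like Chpt1, Fam160a1 and Mtmr7 (0.72, 0.69 and 0.69).

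Plin1, Plin4 and Fabp4 are also transcripts of fat cells, so 2 markers of fat tissue were read in every library. The protocol in the labels says that fat was trimmed from the glands before freezing. Adipoq, the adiponectin gene, was at 0 to 8.17 CPM, and at 0 in 1 library. Cfd, adipsin, was at 0.618 to 76.7 CPM. Cfd passed 20 CPM in 7 libraries, namely female control replicate 4 (76.7) and cKO replicate 2 (51.4) at 12 weeks, female cKO replicate 4 at 6 weeks (21.3), and in males control replicate 2 at 4 weeks (27.2), cKO replicate 1 (45.3) and control replicate 1 (26) at 6 weeks and cKO replicate 3 at 9 weeks (33). The 9 fat markers summed to 22.8 to 244 CPM, and Lep, leptin, was at 0.469 CPM or less in every library. In the 6 genotype comparisons 7 or 8 of the 9 were tested and 1 was called, Thrsp in females at 9 weeks (0.71 ± 0.2, adjusted p = 0.00709).

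Leaving out the 7 libraries kept the calls of Plin2 in females at 6 and 9 weeks (0.41 and 0.32) and of Fabp4 in males at 6 and 9 weeks (0.89 and 1.21). Plin4 stayed called in females at 6 weeks (-2.75), as did Plin5 (-1.51) and Dgat2 (-2.65), so the number called there was 5 of 8 with and without the libraries. Calls lost without them were those of Plin5 and Dgat2 in females at 12 weeks, given above, of Plin1 and Plin3 in the male cKO step from 4 to 6 weeks, and of Dgat2 in males at 6 weeks (-1.42, adjusted p = 0.0708). The last was also lost with log2 CPM of Adipoq as a covariate (-1.14, adjusted p = 0.058). After castration Adipoq was lower (0.736 to 2.15 CPM in sham-operated and 0.0312 to 0.517 CPM in castrated glands; -2.09 ± 0.57, adjusted p = 0.0129), as was Fabp4, and of the 6 fat markers tested 1 was higher (Thrsp, 1.13 ± 0.25, adjusted p = 0.0045) and 3 lower, Adipoq among them. The part of fat tissue in these changes was not tested beyond the values given. Liver transcripts were high in single cKO libraries. Alb, the albumin gene, reached 293 CPM in female cKO replicate 2 at 12 weeks, and in males 72.1, 45.1 and 60.9 CPM in 1 cKO gland each at 4, 6 and 9 weeks, while controls were at 3.14 CPM or less. Of the 6 liver markers 5 were called higher in female cKO glands at 12 weeks, and 2 of the 4 tested in male ones at 9 weeks; the part of liver tissue in the members' values was not tested. Without the library at 293 CPM the same number of members, 3, was called at 12 weeks.

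**Figure D5:**
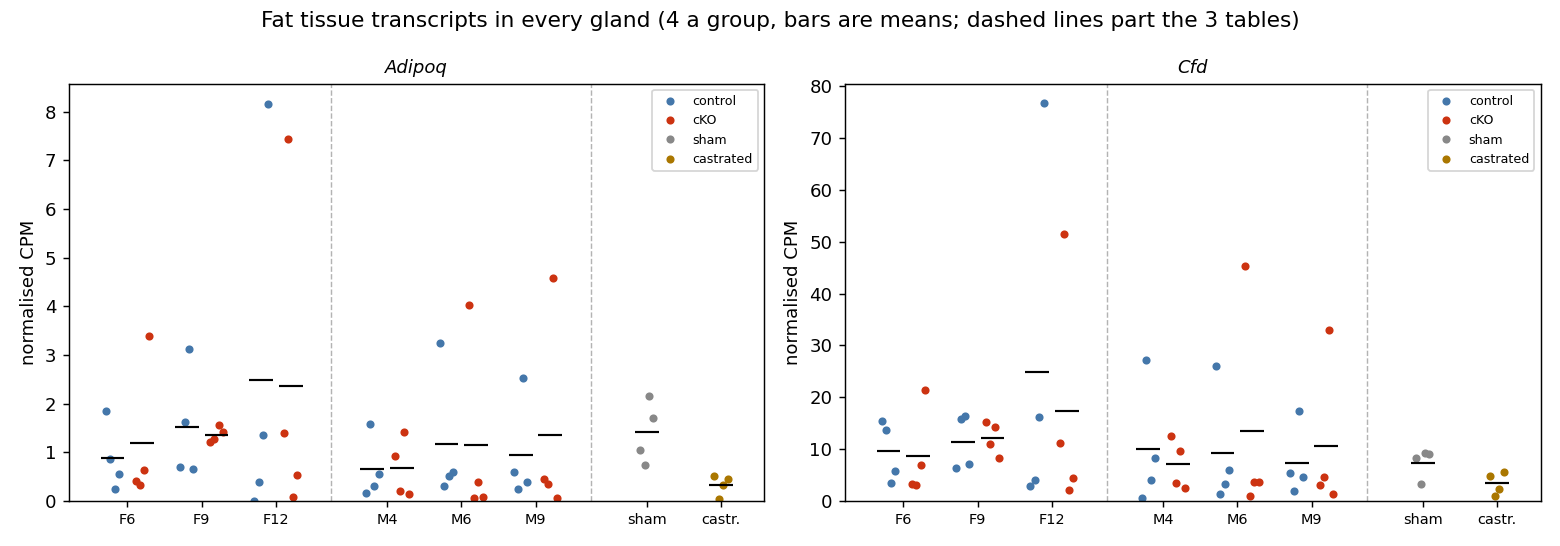
Normalised CPM of Adipoq (left) and Cfd (right) in every gland, by group, with means of 4 glands as bars; dashed lines part the female, male and surgery tables. Single libraries reach 8.17 CPM of Adipoq and 76.7 CPM of Cfd, both in female controls at 12 weeks, while most libraries lie below 2 and 20 CPM.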

How the data were processed

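Poly(A) RNA of 56 whole mouse adrenal glands (14 groups of 4) was sequenced. The authors deposited raw counts per Ensembl gene in 3 tables (female, male, surgery). The build GRCm38 and the tools cutadapt 1.16, RSEM 1.6.3, DESeq2 1.30.1, featureCounts and STAR 2.7.6a were used per the submitters' processing notes; which of them made these counts is not stated. Symbols came from GENCODE annotation of GRCm38, which matched 55227 of 55487 identifiers (52133 of 55414 in the surgery table) and all 122 listed genes.

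Each table was fitted once over all its groups in edgeR 4.0.16 (R 4.3.3) with TMM scaling, filterByExpr at a minimum count of 10 and the quasi-likelihood test. Differences between sexes came from a fit over both tables at each shared age. log2 CPM for correlations used a prior count of 2. The script was tested on simulated data. Total counts per library were 12400000 to 51600000. The labels call the samples biological replicates and add only a number, so p-values measure the spread between these samples.

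The 8 members and the lists were chosen with earlier results of these data known. By rule all 8 were described in every comparison, with at most 4 called genes of smallest p from each list and the 3 genes most like each member (average log2 CPM of at least 1); a few genes that the rule names are not reported here. The neighbourhood of 100 kb and the limit of 20 CPM of Cfd were chosen after seeing the data.

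Alternatives were DESeq2 1.42.0, RLE scaling, no low-count filter, a filter of CPM 5 in 4 libraries, the 2 groups alone, Adipoq, library number range (up to 24 or above) or reporter as a covariate, a replicate block, and leaving out each library. Same-numbered samples did not deviate together (r of -0.38 to 0.178 between control and cKO), so the numbers were not used as pairs. No 2 libraries of a group agreed within sampling noise.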

Additional observations from a re-analysis of the deposited data

Results flagged for a closer look

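In 112 sets of 4 glands (8 genes in 14 groups), 6 held a gland far from the other 3 by Dixon's test at the 95% level; chance flags about 1 in 20 groups. Dgat1 was at 35.3 CPM in female control replicate 1 at 12 weeks, beside 27.9 to 28.1 CPM in the others. Dgat2 was at 19.3 CPM in male control replicate 3 at 6 weeks, beside 11.4 to 11.6 CPM. In female cKO glands at 6 weeks Fabp4 was at 141 CPM in replicate 4, beside 82.7 to 87.2 CPM, and replicate 2 had Plin1 at 218 CPM, beside 114 to 131 CPM, and Plin5 at 11.8 CPM, beside 4.26 to 5.45 CPM. Plin5 was at 82.6 CPM in male control replicate 2 at 6 weeks, beside 46.1 to 52 CPM.

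Differences between effects passed the test for 5 results. The genotype effect on Fabp4 was larger by 0.93 in males at 9 than at 4 weeks, and larger by 0.68 in males than in females at 9 weeks. For Plin1 the male minus female difference at 9 weeks was -1.07. At 6 weeks that difference was 3.26 for Plin4 and 2.72 for Plin5: the pair was lower in female cKO glands and was not called in male ones.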

How the results depend on the processing

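Of 2456 values of single members under the alternatives, 2267 kept direction and side of the threshold, 63 lost a call and 24 gained one. No called value took the opposite sign; 102 uncalled values did, of at most 0.69 in size. The cause was not tested for any of these. The male values at 4 and 6 weeks are the least secure, since library numbers and genotype nearly or fully coincide there. Numbers up to 24 could not be fitted at 6 weeks, and the 6-week values with the number covariate rest on a shift estimated at the other male ages. The spread of Plin4, Plin5 and Dgat2 between 4 glands, seen at low and at higher levels, limits which changes of them can be detected.

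The number of members called changed as follows. DESeq2 gave 1 for the female control step from 6 to 9 weeks, 1 for the female change from 6 to 12 weeks and 2 over all female ages, where edgeR gave 0. In males at 4 weeks it was 2 with no low-count filter, 3 with the 2 groups alone, and 0 with the library number covariate and 0 within numbers up to 24. In males at 6 weeks it was 5 with the 2 groups alone and 1 with the number covariate, and at 9 weeks 1 within numbers up to 24. Without the libraries high in Cfd it was 1 in females at 12 weeks and 1 for the male cKO step from 4 to 6 weeks. With Adipoq as a covariate it was 3 after castration. Leaving out 1 library gave 1 to 2 in females at 9 weeks, 0 to 2 in males at 4 weeks, 1 to 2 in males at 9 weeks, 1 to 3 for the male cKO step from 4 to 6 weeks, 0 to 1 over all male ages and 0 to 2 for the sex difference at 9 weeks.

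With the replicate block the sex difference at 9 weeks called 1 member, Fabp4, since Plin1 was at -1.08 (adjusted p = 0.0544). The block left the other counts of members within 1.5 times. No paired analysis was possible for the surgery table because all sham samples carry the replicate number 1 in the labels.

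These values took the opposite sign with no call in either fit. Without libraries high in Cfd they were 0.01 for Plin3 and -0.04 for Dgat1 in females at 6 weeks, 0.14 and -0.21 for Fabp4 in the female cKO steps from 6 and from 9 weeks, 0.02 for Plin3 in the latter, -0.12 for Plin4 and -0.01 for Dgat1 in males at 4 weeks, -0.0006 for Dgat1 at 6 weeks, and 0.04 for Plin3 and 0.11 for Plin4 at 9 weeks. In male steps they were -0.13 for Dgat2 in the cKO from 4 to 6 weeks, 0.005 for Plin1 in controls from 6 to 9 weeks, and -0.03, 0.02, 0.31 and 0.26 for Plin1, Plin3, Plin4 and Plin5 in the cKO from 6 to 9 weeks. With the number covariate Dgat1 was at -0.10 at 4 weeks and -0.11 at 6 weeks and Plin4 at 0.004 at 9 weeks. Within numbers up to 24 Fabp4 was at -0.04 and Dgat1 at -0.13 at 4 weeks, and Plin3 at 0.06, Plin5 at -0.38 and Dgat2 at 0.69 at 9 weeks. At 9 weeks in males Plin3 was at 0.0005 with RLE scaling, and Plin3 at 0.01 and Plin4 at 0.005 with the CPM filter, and both at 0.01 with the 2 groups alone. With no filter Plin1 was at 0.01 in the male control step from 6 to 9 weeks and Plin2 at -0.002 for the sex difference at 6 weeks. With Adipoq as a covariate Plin1 was at -0.18 after castration.

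Leaving out 1 library gave ranges that cross 0 for uncalled values. In females at 6 weeks these were -0.09 to 0.01 for Plin3 and -0.04 to 0.12 for Dgat1, and at 12 weeks -0.42 to 0.01 for Plin1. In males they were -0.37 to 0.76 for Plin4 and -0.01 to 0.11 for Dgat1 at 4 weeks, -0.003 to 0.23 for Dgat1 at 6 weeks, and -0.05 to 0.05 for Plin3 and -0.20 to 0.17 for Plin4 at 9 weeks. After castration it was -0.04 to 0.33 for Plin2. In female control steps they were -0.09 to 0.08 for Fabp4 and -0.002 to 0.06 for Plin3 from 6 weeks, and -0.01 to 0.05 for Plin3 from 9 weeks. In female cKO steps they were -0.15 to 0.14 for Fabp4 from 6 weeks, and from 9 weeks -0.21 to 0.18 for Fabp4, -0.06 to 0.01 for Plin2, -0.03 to 0.02 for Plin3 and -0.23 to 0.21 for Plin4. In male steps they were -0.09 to 0.19 (from 4 weeks) and -0.14 to 0.16 (from 6 weeks) for Plin1 in controls, -0.13 to 0.21 for Dgat2 in the cKO from 4 weeks, and in the cKO from 6 weeks -0.16 to 0.59 for Dgat2, -0.10 to 0.14 for Plin1, -0.25 to 0.21 for Plin4 and -0.40 to 0.14 for Plin5. For the male change from 4 to 9 weeks they were -0.005 to 0.74 for Dgat2, -0.04 to 0.19 for Plin2 and -0.75 to 0.38 for Plin4, and for the female change from 6 to 12 weeks -0.02 to 0.69 for Plin5. For the sex difference they were -0.10 to 0.09 for Dgat1 and -0.03 to 0.14 for Plin2 at 6 weeks and -0.56 to 0.16 for Dgat2 at 9 weeks.

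Counts of all genes called differed by over 1.5 times in the cases below. In males they were 3275 against 678 within numbers up to 24 and 1701 with the number covariate at 4 weeks, 3435 against 1613 with the number covariate at 6 weeks and 4110 against 624 within numbers up to 24 at 9 weeks, and after castration 7402 against 2562 with Adipoq as a covariate. DESeq2 called more than edgeR for the female cKO step from 6 weeks (713 against 327), the female change (288 against 60) and that over all ages (319 against 26), the male control step from 4 weeks (295 against 12), the male cKO step from 6 weeks (744 against 130, and 0 without libraries high in Cfd), the male change (1677 against 840) and that over all ages (1251 against 283), and the sex differences at 6 weeks (2044 against 1349) and 9 weeks (2518 against 1547). For 3 female steps with 0 calls by edgeR it called 24, 31 and 62, and for the male control step from 6 weeks 2; these 4 steps gave at most 3 calls under the other settings. The replicate block gave 35 for the female change and 185 over all male ages. With no low-count filter it was 50 over all female ages and 44 for the male control step from 4 weeks, for which the Adipoq covariate gave 20 and leaving out libraries high in Cfd 2. The Adipoq covariate gave 45 for the male cKO step from 6 weeks. Leaving out 1 library gave 57 to 331 for the female cKO step from 6 weeks, 11 to 143 for the female change, 5 to 63 over all female ages, 0 to 22 for the male control step from 4 weeks, 1383 to 3010 and 2 to 1345 for the male cKO steps from 4 and 6 weeks, 290 to 2181 for the male change, 8 to 1323 over all male ages and 965 to 2356 for the sex difference at 9 weeks, so the background shares printed for these are loose. The share of calls that were higher was 48.6% by DESeq2 and 59.9% by edgeR for the male change, 50% and 62.1% for the sex difference at 9 weeks, and 81.9% and 98.3% for the female change.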
